A study of Mus musculus with 6 samples.

Results

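The myosin light chain genes described here are 8 genes of the 54532 in the count table: the 6 sarcomeric light chain genes Myl1, Myl2, Myl3, Myl4, Myl6b and Mylpf, and the light chain kinase genes Mylk2 and Mylk4. They were chosen by name, with earlier results of these data known, and all 8 were found by Ensembl ID and had enough counts to be tested. RNA was sequenced from whole quadriceps, a thigh muscle, of mouse pups on chow at 10 days of age, with 3 Myf5Cre-Pcyt2 flox/flox libraries and 3 control libraries (Pcyt2 flox/flox). Both groups carry the floxed Pcyt2 allele, which encodes an enzyme of phosphatidylethanolamine synthesis, and the Myf5Cre-Pcyt2 pups also carry Cre driven from Myf5, a gene of muscle precursors. No label gives the controls a Cre allele, so the effects of Pcyt2 loss and of Cre itself cannot be told apart, and litters are not given. Myf5 also drives Cre outside muscle, and the other cell types of whole muscle, such as nerve, vessel and connective tissue, are in every library. The comparison asks which genes of young muscle differ when Pcyt2 is deleted in the muscle lineage.

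Myosin, the motor of the sarcomere, is built from a pair of heavy chains, and the neck of each heavy chain carries an essential and a regulatory light chain. In mouse skeletal muscle the fast fibres use Myl1 and Mylpf, the slow fibres use Myl3 and Myl2, which the heart ventricle uses as well, and Myl4 is the essential light chain gene of embryonic muscle and of the heart atrium. Calmodulin-dependent light chain kinase adds a phosphate to the regulatory light chain, which raises force at low calcium, and a myosin phosphatase removes it.

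In Myf5Cre-Pcyt2 muscle the fast regulatory light chain gene Mylpf was lower, and the embryonic essential light chain gene Myl4 and the kinase gene Mylk4 were higher, than in control muscle. Of the 8 genes, 2 rose, 1 fell and 5 did not pass an adjusted p of 0.05 in edgeR's quasi-likelihood test, while over all 14715 genes tested 9.02% rose, 9.59% fell and 18.6% changed in either direction. Mylpf fell by 0.67 on the log2 scale (SE 0.18), to 63.0% of the control level. Myl4 rose by a log2 change of 1.34 (SE 0.31), a fold of 2.54, and Mylk4 by 0.40 (SE 0.10), a fold of 1.32. The 8 genes had a median log2 fold change of 0.32, against −0.00197 over all tested genes. Single libraries changed the count: 5 rose and 1 fell without control replicate 3, 1 rose and 0 fell without control replicate 2 or Myf5Cre-Pcyt2 replicate 3, and 1 rose and 2 fell without Myf5Cre-Pcyt2 replicate 1. With Myf5Cre-Pcyt2 replicate 2 left out 0 passed in edgeR, with 2 higher and 2 lower at an unadjusted p under 0.05. Calls over all genes fell too, from 1328 higher and 1411 lower to 422 and 424 without this library. They were 601 and 699 without control replicate 2, 639 and 641 without Myf5Cre-Pcyt2 replicate 3, and 1063 and 1118 without control replicate 3. Without Myf5Cre-Pcyt2 replicate 2 the log2 fold changes were 1.34 for Myl4, 0.45 for Mylk4 and −0.60 for Mylpf. In bulk muscle, fewer fibres of a type and less RNA per fibre cannot be told apart.

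Libraries held 17775898 to 20446920 counts. Levels are CPM, counts relative to library totals, with the totals scaled by TMM, a scaling that assumes most genes do not differ, and scaling by library size alone shifts the median log2 fold change of tested genes by 0.21. Intervals cover the spread between these libraries only. The fibre genes Acta1 and Ckm, at 31106 to 58606 and 9828 to 25702 CPM, marked every library as skeletal muscle. The counts of the targeted gene Pcyt2 did not show the deletion at this threshold (13.9 CPM in Myf5Cre-Pcyt2 and 16.9 CPM in control, log2 fold change −0.28, SE 0.11, adjusted p = 0.0944), and a count per gene does not show which exons are left. By Xist and Y-linked genes, the libraries numbered 3 came from males and the other 4 from females. Of the markers of other cells, 3 of 4 Schwann cell genes, 2 of 4 satellite cell and myoblast genes and 1 of 3 fibroblast genes were higher in Myf5Cre-Pcyt2, with summed levels of 399.6 to 560.9 CPM against 270.5 to 327.8, 164 to 189 against 140 to 153, and 6233 to 7237 against 4159 to 6210 CPM in control. Pdgfra was the fibroblast gene that passed (80.8 to 84.9 CPM in Myf5Cre-Pcyt2, 53.8 to 58.4 in control). Most of the fibroblast sum was Col1a1 (5648 to 6677 and 3623 to 5691 CPM), which did not pass (adjusted p = 0.184), nor did Dcn (log2 fold change 0.02). Pax7 and Myod1 were the satellite cell and myoblast genes that passed. Most of that sum was Myog (93.8 to 110.9 and 83.2 to 95.3 CPM), which did not (adjusted p = 0.179). Of 6 skeletal fibre genes Ckm and Tnnt3 were lower (summed 66700 to 71803 CPM in Myf5Cre-Pcyt2 and 90319 to 120810 in control). Of this sum 31106 to 34753 and 44238 to 58606 CPM were Acta1, which did not pass (adjusted p = 0.0699). Of the fibre genes 1 was lower without control replicate 2 or Myf5Cre-Pcyt2 replicate 1, and 0 were without Myf5Cre-Pcyt2 replicate 2 or 3 and in the female libraries. The satellite cell and myoblast count was 1 without any single library, and the Schwann cell count 2 without control replicate 2 or Myf5Cre-Pcyt2 replicate 2. Of 6 smooth muscle genes Acta2 was lower, at 348 to 589 CPM in Myf5Cre-Pcyt2 and 770 to 918 in control. The summed level of the 6 was 673 to 849.5 CPM in Myf5Cre-Pcyt2 and 1039 to 1188 in control, and most of it was Acta2. The other 5 smooth muscle genes did not pass and each overlapped between the groups, with log2 fold changes of −0.15 (Lmod1) to 0.27 (Myh11). Of 3 macrophage, 3 adipocyte and 3 endothelial genes 0 passed in edgeR, DESeq2 or limma-voom (1 macrophage gene higher at an unadjusted p under 0.05 in each). All markers of these lists were detected, and their part in the results below was not tested.

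The genes lie on 8 chromosomes of GRCm38 and are all annotated as protein coding in GENCODE M21. Mylpf (ENSMUSG00000030672) is on chromosome 7 at 127208890 to 127214298, Myl4 (ENSMUSG00000061086) on chromosome 11 at 104550663 to 104595753 and Mylk4 (ENSMUSG00000044951) on chromosome 13 at 32700834 to 32783954. Myl1 (ENSMUSG00000061816) is on chromosome 1 at 66924295 to 66945404, and its 8 annotated transcripts include a long and a short essential light chain from separate start sites, which a count per gene adds together. Promoters from RefSeq were at hand for 7 of the 8 genes, all but Mylk2. The 250 bases before the RefSeq start site (GRCm38.p6, 5′ to 3′ on the gene's own strand) are shown for the genes that passed and for Myl1, whose level followed that of Mylpf, with every CANNTG in capitals, the E-box read by myogenic factors, and every TATAAA on either strand. The windows are chr7:127211358-127211607 (plus strand), chr1:66945057-66945306 (minus strand), chr11:104550413-104550662 (plus strand) and chr13:32783965-32784214 (minus strand).
Mylpf: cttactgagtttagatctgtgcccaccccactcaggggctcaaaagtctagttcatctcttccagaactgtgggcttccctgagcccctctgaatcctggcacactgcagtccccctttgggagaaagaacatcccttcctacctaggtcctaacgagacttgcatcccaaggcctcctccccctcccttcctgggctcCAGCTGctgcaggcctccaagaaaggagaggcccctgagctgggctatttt
Myl1: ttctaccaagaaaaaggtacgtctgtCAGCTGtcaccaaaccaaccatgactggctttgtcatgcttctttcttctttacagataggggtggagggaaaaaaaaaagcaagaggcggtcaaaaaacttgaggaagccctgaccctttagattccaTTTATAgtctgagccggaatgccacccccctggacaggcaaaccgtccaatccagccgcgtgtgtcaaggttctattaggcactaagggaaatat
Myl4: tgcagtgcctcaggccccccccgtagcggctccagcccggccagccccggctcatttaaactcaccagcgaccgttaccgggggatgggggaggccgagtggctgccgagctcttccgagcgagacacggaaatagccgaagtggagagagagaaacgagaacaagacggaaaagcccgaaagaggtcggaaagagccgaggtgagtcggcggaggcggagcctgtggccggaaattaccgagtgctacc
Mylk4: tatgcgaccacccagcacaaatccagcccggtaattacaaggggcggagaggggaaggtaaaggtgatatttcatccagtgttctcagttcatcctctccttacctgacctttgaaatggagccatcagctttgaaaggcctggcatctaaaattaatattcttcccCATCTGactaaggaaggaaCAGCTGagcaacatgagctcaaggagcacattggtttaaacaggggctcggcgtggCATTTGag
The Mylpf and Myl1 windows each held 1 CANNTG, which was CAGCTG in both. The Mylk4 window held 3, of which 1 was CAGCTG, and the Myl4 window held 0. Of 32851 such windows of mouse genes, 66.2% held CANNTG and 13.0% held CAGCTG, which is itself a CANNTG. The Myl1 window also held TATAAA, on the opposite strand, as did 12.4% of windows. The MEF2 consensus was found in the Mylk4 window and in 2.92% of all windows, on either strand. These are matches of letters and not binding sites.

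The fast regulatory light chain gene Mylpf was the most abundant of the 8 per kb of exon. It had 14297, 11013 and 11292 CPM in Myf5Cre-Pcyt2 replicates 1, 2 and 3, against 17936, 20880 and 19263 CPM in control replicates 1, 2 and 3. The groups did not overlap, and Myf5Cre-Pcyt2 replicate 1 lay closest to the controls. Among the 8 genes the groups did not overlap for 4, with Myl4 and Mylk4 higher and Mylpf and Myl1 lower, where 39.0% of all tested genes had no overlap (19.9% higher, 19.2% lower). The log2 fold change was −0.67 (95% interval −1.07 to −0.27, adjusted p = 0.0292). In the 4 female libraries alone the log2 fold change was −0.62 (adjusted p = 0.332), and the male libraries gave a log2 ratio of −0.77. The call was lost without control replicate 2 (0.0608) or 3 (0.0587), without Myf5Cre-Pcyt2 replicate 2 (0.144) or 3 (0.157), and with a covariate for sex (0.0770), over a range of 3.92e-07 to 0.332.

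Its slow counterpart Myl2, the regulatory light chain gene of slow fibres and ventricle, had 135.3, 189.4 and 195.1 CPM in Myf5Cre-Pcyt2, against 79.3, 61.5 and 172.4 CPM in control. The groups overlapped because control replicate 3 lay between the Myf5Cre-Pcyt2 libraries. The log2 fold change of 0.73 (SE 0.31) did not pass (adjusted p = 0.120, interval 0.05 to 1.41). Without control replicate 3 it was 1.30 (adjusted p = 0.00292), and with a covariate for sex 0.86 (0.0261). The adjusted p ranged from 4.66e-10, with no filter on low counts (SE 0.11), to 0.326 with DESeq2. As a share of the Myl2 and Mylpf counts per kb of exon, Myl2 took 0.791 ± 0.241% in Myf5Cre-Pcyt2 and 0.295 ± 0.169% in control (SD, n = 3 each). The libraries of the groups did not overlap in this share, and the exact permutation test gave p = 0.1, two-sided, the smallest p that 3 against 3 libraries allow (0.2 adjusted over the 5 shares tested).

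**Figure D1:**
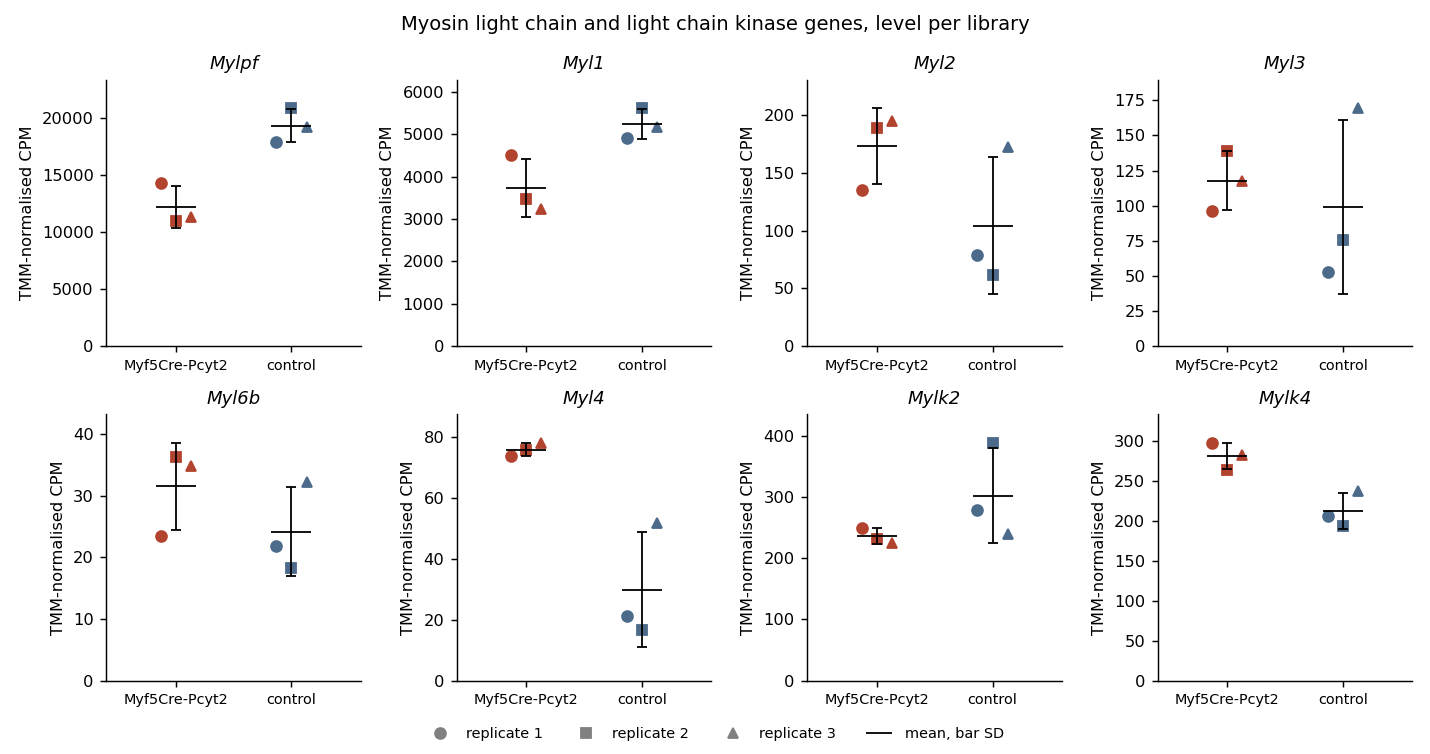
Level of each gene in TMM-normalised CPM (vertical axes, from 0) in Myf5Cre-Pcyt2 libraries (left) and control libraries (right), with a symbol per replicate and the mean with its SD. The 3 Myf5Cre-Pcyt2 libraries lie below all controls for Mylpf and Myl1 and above them for Myl4 and Mylk4, and control replicate 3 stands above the other controls for Myl2, Myl3, Myl4 and Myl6b.

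Myl1, the fast essential light chain gene, had 4506, 3472 and 3223 CPM in Myf5Cre-Pcyt2, against 4909, 5612 and 5172 CPM in control, with no overlap between the groups. Its log2 fold change of −0.49 (SE 0.16, interval −0.84 to −0.13) had an adjusted p of 0.0571 and did not pass. It passed in 5 of 16 alternatives, among them DESeq2 (9.64e-04) and limma-voom (0.0405), over a range of 9.64e-04 to 0.379. The log2 ratio of Mylpf to Myl1 counts within a library was 1.71 ± 0.0827 in Myf5Cre-Pcyt2 and 1.89 ± 0.0156 in control (exact permutation test, two-sided, n = 3 each, p = 0.1, the smallest possible). It was lower in all 3 Myf5Cre-Pcyt2 libraries. This ratio was chosen after its values were seen, so its separation and p are descriptions only.

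The embryonic and atrial gene Myl4 had 73.7, 75.6 and 78.1 CPM in Myf5Cre-Pcyt2, against 21.4, 16.8 and 51.6 CPM in control. The Myf5Cre-Pcyt2 libraries lay within a narrow band above all controls, with a coefficient of variation of 2.88% against 63.3% in control. Control replicate 3, from a male, was above the other controls and below every Myf5Cre-Pcyt2 library. The log2 fold change was 1.34 (interval 0.65 to 2.04, adjusted p = 0.0167). It was 1.99 without control replicate 3, 1.97 in the female libraries alone (adjusted p = 5.61e-04), and the male libraries gave a log2 ratio of 0.60. The call held in 15 of 16 alternatives and was lost when Myf5Cre-Pcyt2 replicate 2 was left out (0.0627, the highest adjusted p). The lowest, 4.92e-33, came only with no filter on low counts, where the SE was 0.11 against 0.31 in the reported fit. The next lowest was 6.20e-05, without control replicate 3.

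The slow and ventricular essential light chain gene Myl3 had 96.5, 138.9 and 117.9 CPM in Myf5Cre-Pcyt2, against 52.8, 75.4 and 169.3 CPM in control. Control replicate 3 was above every Myf5Cre-Pcyt2 library. The log2 fold change of 0.25 (SE 0.33, interval −0.48 to 0.98, adjusted p = 0.632) became 0.88 without control replicate 3 (0.0133) and −0.05 without control replicate 1 (0.914), with adjusted p between 0.0133 and 0.914 over the alternatives. Myl6b, an essential light chain gene of slow muscle and of other tissues, had 23.4, 36.3 and 34.8 CPM in Myf5Cre-Pcyt2, against 21.9, 18.3 and 32.2 CPM in control. The groups overlapped, and the log2 fold change of 0.39 (SE 0.20) did not pass (adjusted p = 0.204). Without control replicate 3 it was 0.65 and passed (0.0404). Its adjusted p ranged from 0.00598, with no filter on low counts, to 0.503.

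Within a library, the essential light chain genes were also read as shares of their sum. Of the counts per kb of exon of Myl1, Myl3, Myl4 and Myl6b, Myl4 took 0.707, 0.917 and 1.02% in Myf5Cre-Pcyt2, against 0.191, 0.131 and 0.427% in control, with no overlap (exact permutation test, two-sided, p = 0.1, or 0.2 adjusted over the 5 shares). Myl1 took 95.04 ± 1.38% in Myf5Cre-Pcyt2 and 97.4 ± 1.43% in control. Myl3 took 3.14 ± 0.916% and 1.86 ± 1.15%, and Myl6b 0.938 ± 0.324% and 0.507 ± 0.155%, in Myf5Cre-Pcyt2 and control (SD, n = 3 each). Myl1, Myl3 and Myl6b overlapped between the groups, with p = 0.2 each in the exact permutation test. The log2 ratio of Myl4 to Myl3 counts was −0.62 ± 0.245 in Myf5Cre-Pcyt2 and −1.73 ± 0.433 in control (exact permutation test, n = 3 each, p = 0.1). It was higher in each Myf5Cre-Pcyt2 library than in any control. This ratio was chosen after its values were seen, so its separation and p are descriptions only. Shares depend on the length given to a gene: with the length of the principal transcript the Myl4 share differed by 1.20 percentage points and the Myl2 share by 0.779, against 0.632 and 0.496 with the union of exons.

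**Figure D2:**
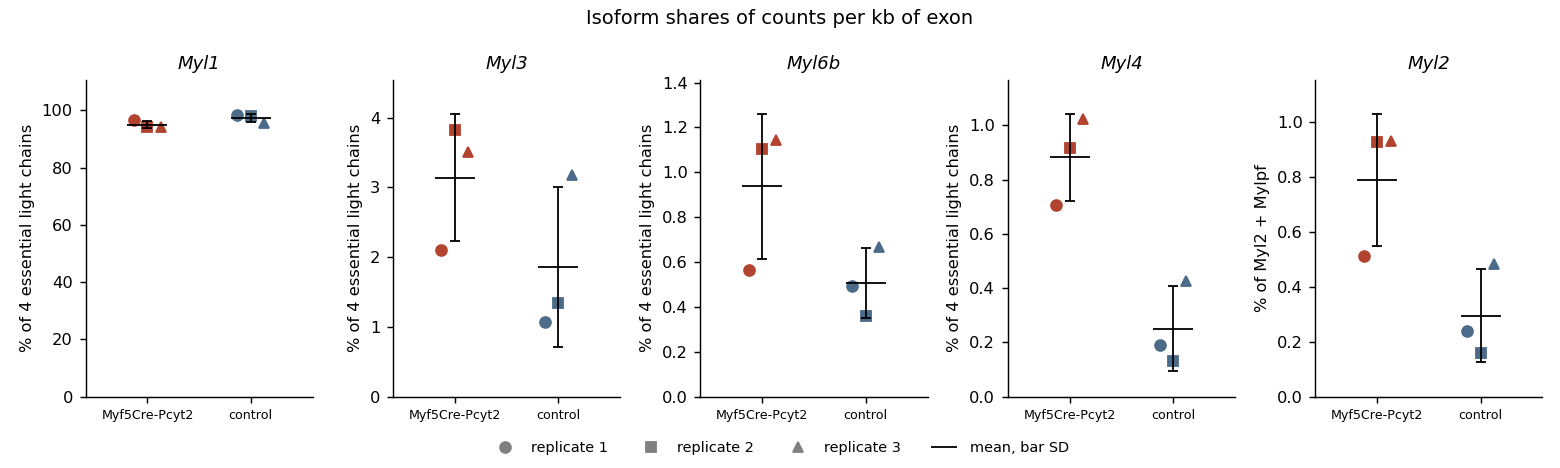
Shares in percent of counts per kb of exon (vertical axes, from 0) in Myf5Cre-Pcyt2 (left) and control (right) libraries, with a symbol per replicate and the mean with its SD. Myl1, Myl3, Myl6b and Myl4 are shares of their sum and Myl2 is a share of Myl2 and Mylpf, and the groups are apart for Myl4 and Myl2.

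The kinase genes Mylk4 and Mylk2 had mean differences of opposite sign. Mylk4, a kinase gene of the light chain kinase family expressed in striated muscle, had 297.4, 264.2 and 282.8 CPM in Myf5Cre-Pcyt2, against 206.0, 193.6 and 238.2 CPM in control. All 3 Myf5Cre-Pcyt2 libraries were above all controls, and the log2 fold change of 0.40 (interval 0.18 to 0.63) passed (adjusted p = 0.0228). The female libraries alone gave 0.49 (0.0521) and the male libraries a log2 ratio of 0.25. The call was lost without control replicate 2 (0.0705) and without Myf5Cre-Pcyt2 replicate 1 (0.0604), 2 (0.0527) or 3 (0.0785), over a range of 0.00210 to 0.0785. Mylk2, the skeletal muscle light chain kinase gene, had 249.9, 231.5 and 225.4 CPM in Myf5Cre-Pcyt2, against 278.7, 388.0 and 239.1 CPM in control. Control replicate 2 was far above the other controls and control replicate 3 fell within the Myf5Cre-Pcyt2 range. The log2 fold change of −0.36 (SE 0.15, interval −0.70 to −0.02) did not pass (adjusted p = 0.128). It was −0.13 without control replicate 2 and −0.50 without control replicate 3, where it passed (0.0382). Its adjusted p ranged from 0.0104, with no filter on low counts, to 0.437. The log2 ratio of Mylk4 to Mylk2 counts was 0.26 ± 0.0688 in Myf5Cre-Pcyt2 and −0.48 ± 0.50 in control (exact permutation test, two-sided, n = 3 each, p = 0.1, the smallest possible). This ratio was above 0 in the 3 Myf5Cre-Pcyt2 libraries and below 0 in the 3 controls (−0.0049 in control replicate 3). It was chosen after its values were seen, so its separation and p are descriptions only. Its counts are not scaled by gene length, and per kb of exon Mylk2 was above Mylk4 in every library. The levels were 76.4 to 84.7 against 34.4 to 38.7 CPM per kb in Myf5Cre-Pcyt2, and 81.0 to 131 against 25.2 to 31.0 in control.

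**Figure D3:**
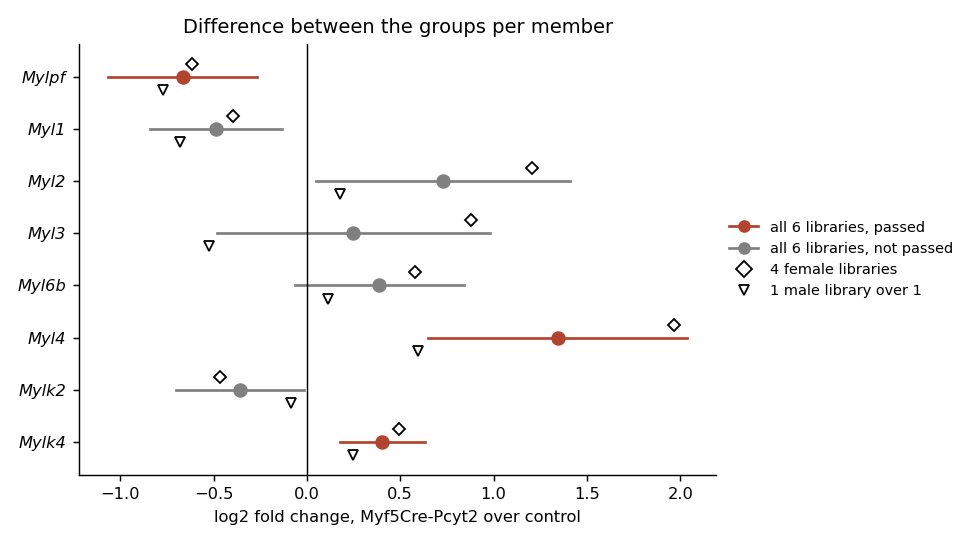
Log2 fold change of each gene, Myf5Cre-Pcyt2 over control (horizontal axis), with the 95% interval from the fit on 6 libraries. Open diamonds are the fit on the 4 female libraries and open triangles the ratio of the male libraries, which differ most for Myl2, Myl3 and Myl4.

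The members varied among themselves in a pattern that crossed the group line. Control replicate 3 was the highest of the controls for 5 members (Myl2, Myl3, Myl4, Myl6b and Mylk4), and Myf5Cre-Pcyt2 replicate 1 was the lowest of its group for 4 (Myl2, Myl3, Myl4 and Myl6b). Control replicate 3 was also the highest control for all 5 slow-fibre markers, Myh7, Tnnt1, Tnni1, Tnnc1 and Atp2a2, which code for slow isoforms of myosin, troponin and the calcium pump. Their summed level was 1005 to 1365 CPM in Myf5Cre-Pcyt2 and 572 to 1195 CPM in control, and 0 of 5 passed in edgeR (3 higher at an unadjusted p under 0.05, 0 with DESeq2 and 1 with limma-voom adjusted). Without control replicate 3, 5 of 5 were higher, and 3 were with a sex covariate, with a block for replicate number and in the female libraries alone, while 0 passed with any other single library left out. Across the 6 libraries Myl1 and Mylpf had a Pearson r of 0.9753, Myl2 and Myl6b 0.949, Myl2 and Myl4 0.944, and Myl4 and Mylk4 0.960. Negative values ran from −0.93 for Myl2 and Mylk2 to −0.38 for Mylpf and Myl3, with −0.81 for Myl4 and Mylpf. These are descriptions over 6 libraries that share the group difference. Control libraries spread more in the slow and embryonic genes (coefficients of variation of 57.0% for Myl2, 62.3% for Myl3 and 63.3% for Myl4) than in Mylpf (7.62%) or Myl1 (6.79%), where the median gene had 10.9%.

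**Figure D4:**
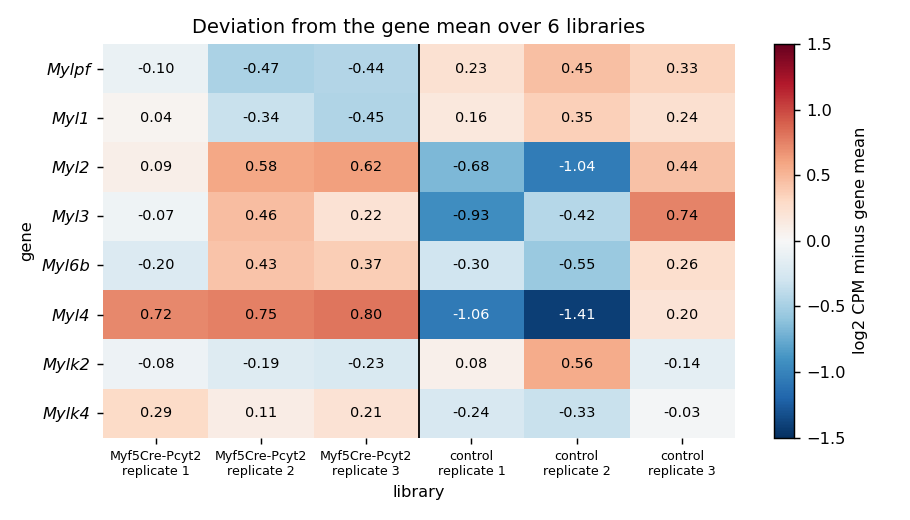
Log2 CPM of each gene in each library minus the gene's mean over the 6 libraries (colour and number), with Myf5Cre-Pcyt2 libraries left of the line and control libraries right of it. Control replicate 3 has positive values for Myl2 (0.44), Myl3 (0.74), Myl4 (0.20) and Myl6b (0.26), while control replicates 1 and 2 are negative.

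By level per kb of exon the order was Mylpf, Myl1, Myl2, Mylk2, Myl3, Mylk4, Myl6b and Myl4 in Myf5Cre-Pcyt2, and in control the same but for Mylk2 above Myl2. Mylpf had 11488 ± 1715 CPM per kb in Myf5Cre-Pcyt2 and 18230 ± 1388 in control (SD, n = 3 each), and Myl1 1800 ± 328 and 2522 ± 171. The remaining genes had means of 16.3 to 88.8 CPM per kb in Myf5Cre-Pcyt2 and 6.45 to 102 in control. Neighbouring ranges overlapped for Myl2 and Mylk2 and for Myl6b and Myl4 in both groups, and for Myl2, Myl3 and Mylk4 in control. With the length of the principal transcript Myl4 moved to the fifth place in Myf5Cre-Pcyt2 and the seventh in control. The summed regulatory light chains were 11577 ± 1698 CPM per kb in Myf5Cre-Pcyt2 and 18283 ± 1383 in control, the summed essential light chains 1891 ± 316 and 2590 ± 174, and the 6 sarcomeric heavy chains that they bind 7735 ± 1465 and 10373 ± 2101. Among those heavy chain genes Myh8 (neonatal) and Myh3 (embryonic) rose, with log2 fold changes of 3.04 (SE 0.43) and 1.63 (SE 0.25), and the other 4 did not pass. The log2 fold changes were −0.69 (SE 0.27, adjusted p = 0.0973) for Myh4, −0.37 (SE 0.16, adjusted p = 0.125) for Myh2 and 0.23 (SE 0.18, adjusted p = 0.397) for Myh1, the fast adult genes, and 0.86 (SE 0.29, adjusted p = 0.0595) for the slow Myh7.

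Genes that resembled each member across the 6 libraries were taken as the 3 with the highest Pearson r among those with at least 10 CPM. For Mylpf they were Ethe1, Tnni2, a fast troponin gene, and Fth1 (r of 0.997 to 0.9996), for Myl1 Rbms2, Ank1 and Gnptg (0.993 to 0.997), and for Myl2 Tpsb2, Tnni1, the slow troponin I gene, and Prmt2 (0.990 to 0.9996). For Myl6b they were Zcchc4, Csrp3 and Tnnt1, the slow troponin T gene (0.976 to 0.981). Myl4 was nearest to Zdhhc20, Wsb1 and Rnf217 (0.993 to 0.996) and Mylk4 to Mcm2, Osgin2 and Akap11 (0.993 to 0.994). Myl3 was nearest to Hectd2os, Tceal7 and Nab1 (0.979 to 0.986) and Mylk2 to H2afy, Nin and Pla2g7 (0.993 to 0.994). As the highest r of many genes over 6 libraries that share the group difference, these values are high by selection and are descriptions only.

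The 22 other genes listed code for light chains, calmodulin, light chain kinases, the phosphatase or its inhibitors. They also include kinases acting on these or, as Camkk1 and Camkk2, on kinases of the calmodulin family. Of the 22, 21 were tested: 4 rose, 3 fell and 14 did not pass, with a median log2 fold change of 0.04. Over all tested genes 9.02% rose, 9.59% fell and 18.6% changed in either direction. The list was chosen with earlier results of these data known. The untested gene was Myl7, the atrial regulatory light chain, with 1 count in all. Calm3, a gene of calmodulin, the calcium sensor that switches the kinase on, had 271.3, 241.4 and 246.8 CPM in Myf5Cre-Pcyt2, against 343.6, 376.1 and 335.6 CPM in control. The groups did not overlap, and Calm3 fell by 0.47 on the log2 scale (SE 0.09, adjusted p = 0.00922). In the 4 female libraries alone it did not pass (0.0608), over a range of 2.42e-05 to 0.0608. For Calm2, another calmodulin gene, the log2 fold change was −0.03 (SE 0.10, adjusted p = 0.875). Of 6 genes of the light chain phosphatase and its inhibitors, Ppp1r12a, which encodes 1 of 3 listed myosin-targeting subunits, rose by 0.42 (SE 0.10, adjusted p = 0.0169), with 87.9 ± 0.728 CPM in Myf5Cre-Pcyt2 and 65.9 ± 8.43 CPM in control (SD, n = 3 each). The more abundant Ppp1r12b had 763 ± 33.3 CPM in Myf5Cre-Pcyt2 and 758 ± 49.2 CPM in control (log2 fold change 0.009, SE 0.10, adjusted p = 0.961), and Ppp1r12c did not pass (0.18, SE 0.09, adjusted p = 0.180). In the same list Ppp1r14c, a phosphatase inhibitor gene, fell by 0.34 on the log2 scale (SE 0.08, adjusted p = 0.0197).

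Of the other light chain genes tested, Myl10, a regulatory light chain gene, rose with 13.8, 12.7 and 11.4 CPM in Myf5Cre-Pcyt2, against 7.94, 6.15 and 9.85 CPM in control (log2 fold change 0.66, SE 0.16, adjusted p = 0.0203). The other 4 tested light chain genes, Myl6, Myl9, Myl12a and Myl12b, did not pass, nor did the smooth muscle and cardiac kinase genes Mylk and Mylk3. Camkk1 and Camkk2, kinases that act on calmodulin-dependent kinases, rose by 1.06 (SE 0.18, adjusted p = 0.00473) and 0.38 (SE 0.11, adjusted p = 0.0360). Camkk1 passed in all 16 alternatives (up to 0.0469). Camkk2 passed in 8 of 16 (0.0137 to 0.186), and not with DESeq2, a sex covariate, a block for replicate number or the female libraries alone, nor without control replicate 2 or 3 or Myf5Cre-Pcyt2 replicate 2 or 3. Without control replicate 2 only 1 of the 22 genes was higher, as without Myf5Cre-Pcyt2 replicate 2, and 2 were without Myf5Cre-Pcyt2 replicate 3: Camkk2, Ppp1r12a and Myl10 lost their call in these sets of libraries, except that Myl10 kept it without Myf5Cre-Pcyt2 replicate 3. Myl10 also did not pass without Myf5Cre-Pcyt2 replicate 1, and it passed in 13 of 16 alternatives (7.85e-05 to 0.0752). Ppp1r12a also did not pass in the female libraries alone, and it passed in 12 of 16 (0.00125 to 0.119). Ppp1r14c did not pass without Myf5Cre-Pcyt2 replicate 2 or 3, in the female libraries alone, with a block for replicate number or with library size alone (range 0.00310 to 0.308).

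Because Myl2, Myl3 and Myl4 are also heart genes, 9 cardiomyocyte markers were read in the same libraries. Their summed level was 2.94 to 3.32 CPM in Myf5Cre-Pcyt2 and 1.68 to 2.38 CPM in control, mostly Tnni3 and Ryr2. Nppb and Nkx2-5 had 0 counts in every library. Of the 9, 2 had enough counts to be tested and 0 passed in edgeR or DESeq2 (2 higher at an unadjusted p under 0.05 in edgeR).

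**Figure D5:**
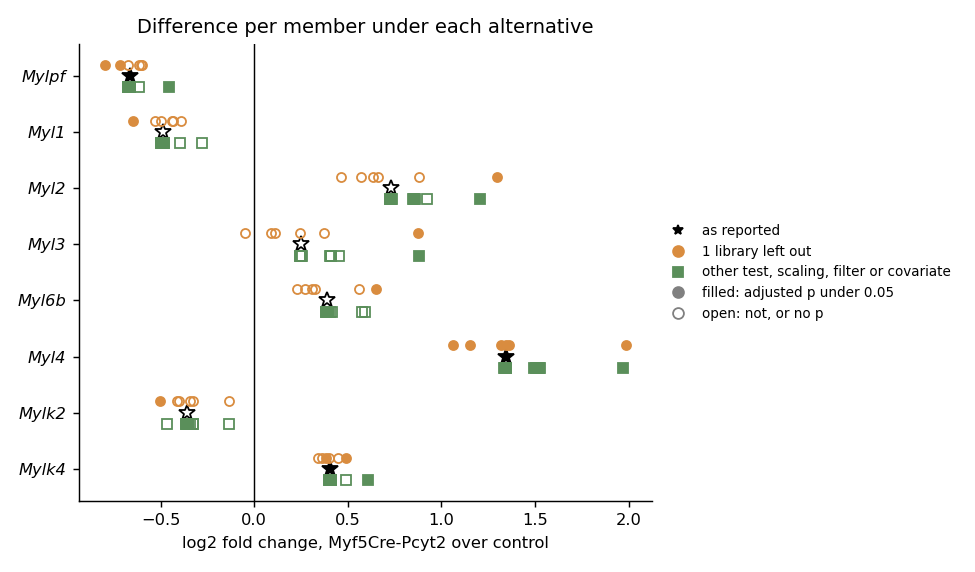
Log2 fold change of each gene, Myf5Cre-Pcyt2 over control (horizontal axis), as reported (star), with 1 library left out (circles) and under the other tests, scalings, filters and covariates (squares), filled where the adjusted p was under 0.05. Every value of Mylpf, Myl1 and Mylk2 is below 0 and every value of Myl2, Myl6b, Myl4 and Mylk4 above 0, and Myl3 crosses 0 in 1 setting.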

How the data were processed

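RNA of quadriceps (1.3 µg of total RNA per library) was sequenced in 3 Myf5Cre-Pcyt2 and 3 control pups. The authors deposited raw counts for each Ensembl gene. The submitters' processing notes name Trim Galore 0.5.0, Bowtie2 2.3.4.1, featureCounts and Subread 1.6.2 on GRCm38 (mm10), without role or order. Not given in the sources used here: annotation release, strand setting and treatment of multi-mapping reads. Bowtie2 does not split reads over introns, so reads across exon junctions would be lost if it alone placed reads on the genome, and the size of this was not tested. Without strand, reads from overlapping genes cannot be told apart: Myl2 shares 60 exonic bases with Ccdc63 and Myl3 95 with Pth1r. Of the 50-base words of Myl1, 11.7% also occur in its pseudogene Mylf-ps, and at most 2.46% for the other members.

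Symbols and positions came from GENCODE M21 (54495 of 54532 IDs matched; no count column was left out). edgeR 4.0.16 in R 4.3.3 tested 14715 genes kept by filterByExpr, with TMM scaling and the quasi-likelihood test, two-sided, Benjamini-Hochberg adjusted over all tested genes, threshold 0.05. SE is the log2 fold change over the root of F. Shares and ratios used exact permutation tests over libraries. Counts per kb use the union of exons. The 8 members and all lists were chosen with earlier results of these data known; the 3 ratios were chosen after their values were seen. Besides the members, genes were named from the regulation, heavy chain and marker lists or as the 3 most similar in pattern. The fit was also tested on counts simulated with the common dispersion of these data for every gene. It recovered 56.9% of 1.5-fold, 87.9% of 2-fold and 100% of 4-fold changes. Myl2, Myl3 and Myl4 varied far more than this between controls, so these percentages do not apply to them. Alternatives used DESeq2 1.42.0, limma 3.58.1 (voom), other scalings and filters, a sex covariate, a block for replicate number and fits with 1 library left out. Fits on the female libraries alone and principal transcript lengths were added after the data were seen. Since litters are not given, p-values reflect only how much these libraries vary. The values of 1 gene counted in the regulation list are not reported here. Within each group, counts of every pair of libraries differed by more than sampling noise.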

Additional observations from a re-analysis of the deposited data

How the results depend on the processing

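Over 16 alternatives, the direction of each member's log2 fold change was kept except that of Myl3, which was −0.052 without control replicate 1 (up to 0.88 without control replicate 3). The number of all genes higher and lower was 3225 and 499 with library size alone, and 434 and 435 in the 4 female libraries alone. Leaving out each library gave 422 to 1337 higher and 424 to 1448 lower genes, with the fewest of both without Myf5Cre-Pcyt2 replicate 2. Members that rose or fell numbered 4 and 3 with no filter on low counts. The member that fell was lost (0 lower) with the replicate block, the covariate for sex and the female libraries (0, 3 and 1 lower at an unadjusted p under 0.05), and 2 members fell with DESeq2 and with limma-voom. Leaving out each library gave 0 to 5 higher and 0 to 2 lower members; without Myf5Cre-Pcyt2 replicate 2, 0 passed (2 higher and 2 lower at an unadjusted p under 0.05), and without control replicate 3, 5 were higher. Of the regulation list, 7 were higher with library size alone and 0 were lower in the female libraries (3 at unadjusted p under 0.05). Leaving out each library gave 1 to 4 higher and 2 to 3 lower genes of this list. Shares kept their direction under all lengths and without each library: the differences in percentage points were −3.17 to −1.90 for Myl1, 0.881 to 1.93 for Myl3, 0.562 to 0.721 for Myl4, 0.328 to 0.617 for Myl6b and 0.425 to 0.635 for Myl2 without each library. None of these shares can pass 0.05 with 3 libraries a group. Without the 20 most abundant genes Mylpf, 1 of the 20, has no test.

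Same-numbered libraries did not deviate together (r of −0.111, −0.174 and 0.0182), and 0 of 3 controls resembled its own number most. With 3 libraries a group these values cannot decide whether the numbers pair the samples by litter or batch. Both libraries numbered 3 came from males. With the replicate block 865 genes were higher and 866 lower, Mylpf had −0.67 (adjusted p = 0.190), Mylk4 0.41 (0.0538), Myl4 1.503 (0.00577) and Myl2 0.85 (0.0314).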
